A study of Rattus norvegicus with 6 samples.

Results

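The 10 genes described here carry the synthesis, conjugation, uptake, export and feedback control of bile acids in liver: Cyp7a1, Cyp7b1, Cyp8b1, Cyp27a1, Baat, Slc10a1, Abcb11, Abcc2, Nr1h4 and Nr0b2. They were taken by symbol from the 32623 genes of the deposited table, where all 10 had 1 row each, and all 10 passed the filter on low counts. RNA of rat liver (Rattus norvegicus) was sequenced in 2 groups of 3 libraries. The HCC group came from a study of hepatocellular carcinoma and was left untreated, and the TAE group had received transarterial embolization, which plugs the arterial supply of a tumour. The labels name the tissue as liver. They give no strain, age, sex, tumour model or time after embolization, and do not say whether tumour or surrounding liver was taken.

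Bile acids are made from cholesterol in hepatocytes. In the classic route cholesterol is first hydroxylated by Cyp7a1, and in the alternative route by Cyp27a1 followed by Cyp7b1, while Cyp8b1 sets the share of cholic acid. Conjugated bile acids are taken up from blood by Slc10a1 and pumped into bile by Abcb11, and they activate the nuclear receptor encoded by Nr1h4 (FXR), which induces the repressor Nr0b2 (SHP) and thereby lowers synthesis.

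The libraries held 13448286 to 16604067 counts each, and every gene of the 10 had at least 49 counts in every library. The TAE libraries differed from each other in the summed level of hepatocyte markers. Of 24 hepatocyte markers 23 were analysed, 0 of them were at 0 in any library, and their summed FPKM (fragments per kilobase of exon, scaled to the library's total) was 35452 to 43166 in HCC against 21101, 14950 and 48512 in TAE replicates 1, 2 and 3. In this sum TAE replicate 3 stood above every HCC library where the other TAE libraries stood below. Single markers differed in TAE replicate 3. Tf and Hpx lay above every HCC library (5852 and 5439 FPKM), and Alb lay within the HCC range (15304 FPKM). Ttr, Apob and Tat lay below every HCC library (1415, 155 and 51.1 FPKM). Marker sums of other cell types were 87.0 to 128 FPKM in HCC and 221 to 385 in TAE for 11 cholangiocyte markers. For 14 macrophage markers the sums were 1744 to 2068 and 4295 to 6445, and for 11 fibroblast and stellate cell markers 474 to 754 and 1186 to 3082, and none of the macrophage, fibroblast and stellate cell markers was at 0. For 10 endothelial markers the sums overlapped, at 79.3 to 91.3 and 82.6 to 152.5, and for 12 lymphocyte markers they were 185 to 245 and 337 to 520. These sums rest largely on a few genes, such as Lyz2 among the macrophage markers (801 and 3226 FPKM, group means) and Spp1 and Anxa4 among the cholangiocyte markers. Passing the test higher were 5 of 14 macrophage, 2 of 10 tested cholangiocyte, 1 of 11 fibroblast and stellate cell, 0 of 10 endothelial and 0 of 12 lymphocyte markers. Over all genes, 2.7% passed higher. Of the 23 hepatocyte markers, 0 passed in either direction. The log2 changes of Cd163, Marco, Clec4f, Krt7 and the endothelial marker Stab2 were negative, from -0.05 to -0.38, and none of them passed. In tissue RNA, fewer cells of a type and less RNA per cell cannot be told apart.

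Upstream sequence was at hand for 6 of the 10 genes, in RefSeq's table for the GRCr8 assembly, and Cyp7a1, Cyp7b1, Abcb11 and Nr1h4 had no entry. The 250 bases before the start are shown, 5′ to 3′ on the gene's strand, for Baat and Slc10a1, whose levels followed the hepatocyte markers, for Cyp8b1, which varied most among libraries, and for Abcc2, which did not follow the markers in TAE replicate 3. Capitals mark matches to motifs searched on both strands.
Baat (chr5:68656138-68656387, minus strand): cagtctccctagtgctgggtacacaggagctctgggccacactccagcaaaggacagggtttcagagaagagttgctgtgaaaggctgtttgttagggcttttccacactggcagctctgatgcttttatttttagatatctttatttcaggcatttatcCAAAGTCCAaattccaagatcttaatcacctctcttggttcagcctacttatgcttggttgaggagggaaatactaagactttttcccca
Slc10a1 (chr6:106357945-106358194, minus strand): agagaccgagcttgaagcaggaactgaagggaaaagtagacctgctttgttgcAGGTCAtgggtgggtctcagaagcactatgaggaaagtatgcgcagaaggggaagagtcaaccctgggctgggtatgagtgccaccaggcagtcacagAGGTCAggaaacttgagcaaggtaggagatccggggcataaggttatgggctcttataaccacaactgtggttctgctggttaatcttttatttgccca
Cyp8b1 (chr8:130457593-130457842, minus strand): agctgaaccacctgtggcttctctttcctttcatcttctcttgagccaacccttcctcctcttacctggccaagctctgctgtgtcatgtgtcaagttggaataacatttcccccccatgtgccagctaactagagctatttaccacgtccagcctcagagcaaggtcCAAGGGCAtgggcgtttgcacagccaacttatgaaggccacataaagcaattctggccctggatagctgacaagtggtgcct
Abcc2 (chr1:252613625-252613874, plus strand): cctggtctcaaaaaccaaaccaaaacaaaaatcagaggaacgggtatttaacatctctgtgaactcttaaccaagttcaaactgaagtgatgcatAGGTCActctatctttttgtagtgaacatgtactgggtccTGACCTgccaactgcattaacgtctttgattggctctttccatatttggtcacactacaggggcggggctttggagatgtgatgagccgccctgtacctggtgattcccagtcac
The capitals in Baat are the HNF4A core CAAAGNCCA, 90 bases before the start, which 1 of the 6 genes and 1.53% of 33469 upstream windows of this length hold. Cyp8b1 holds the core CAAGGNCA of the nuclear receptor NR5A2 (LRH-1) 82 bases before the start. Nr0b2 (199 bases before) and Cyp27a1 (236 bases before, on the opposite strand) hold it too, 3 of 6 against 5.58% of all windows. The nuclear receptor half-site AGGTCA stands in Slc10a1 and Abcc2 at 2 places each and in Cyp27a1, where 1 of its 2 places lies within the CAAGGNCA match, 3 of 6 against 14.1% of all windows. The core of the FXR-like inverted repeat spaced by 1 base (0.607% of windows) matched in 0 of the 6. A match describes letters in the window only.

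The comparison of TAE with HCC asked how each of these genes stood in liver after embolization. None of the 10 passed edgeR's quasi-likelihood test at an adjusted p of 0.05 (0 higher and 0 lower), where 3.01% of the 14499 genes tested passed, 2.7% higher and 0.31% lower. Abcc2 alone had an unadjusted p under 0.05, against 22.7% of all genes. DESeq2 called 1 of the 10, Abcc2, lower (1.65% of all genes) and 0 higher (8.81%). Limma-voom with sample weights, which called 5975 genes, put 5 of the 10 lower (19.5% of all genes) and Cyp7b1 higher (21.7%). The log2 change was negative for 8 genes and positive for Cyp7a1 and Cyp7b1, with a median of -0.44, against 53.1% negative and a median of -0.03 over all genes. Among the hepatocyte markers, all 23 changes were negative, with a median of -0.51, so a fall of this size was not particular to the bile acid genes. The FPKM values of the 3 TAE libraries lay below all 3 HCC values for Abcb11, Abcc2 and Nr0b2, 3 of 10 against 5.54% of all genes, and above them for 0, against 21.9%. On counts scaled by TMM to library size (CPM), only Abcc2 stayed apart and lower, 1 of 10 against 13.4% of all genes, and 0 lay apart and higher, against 18.6%.

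**Figure D1:**
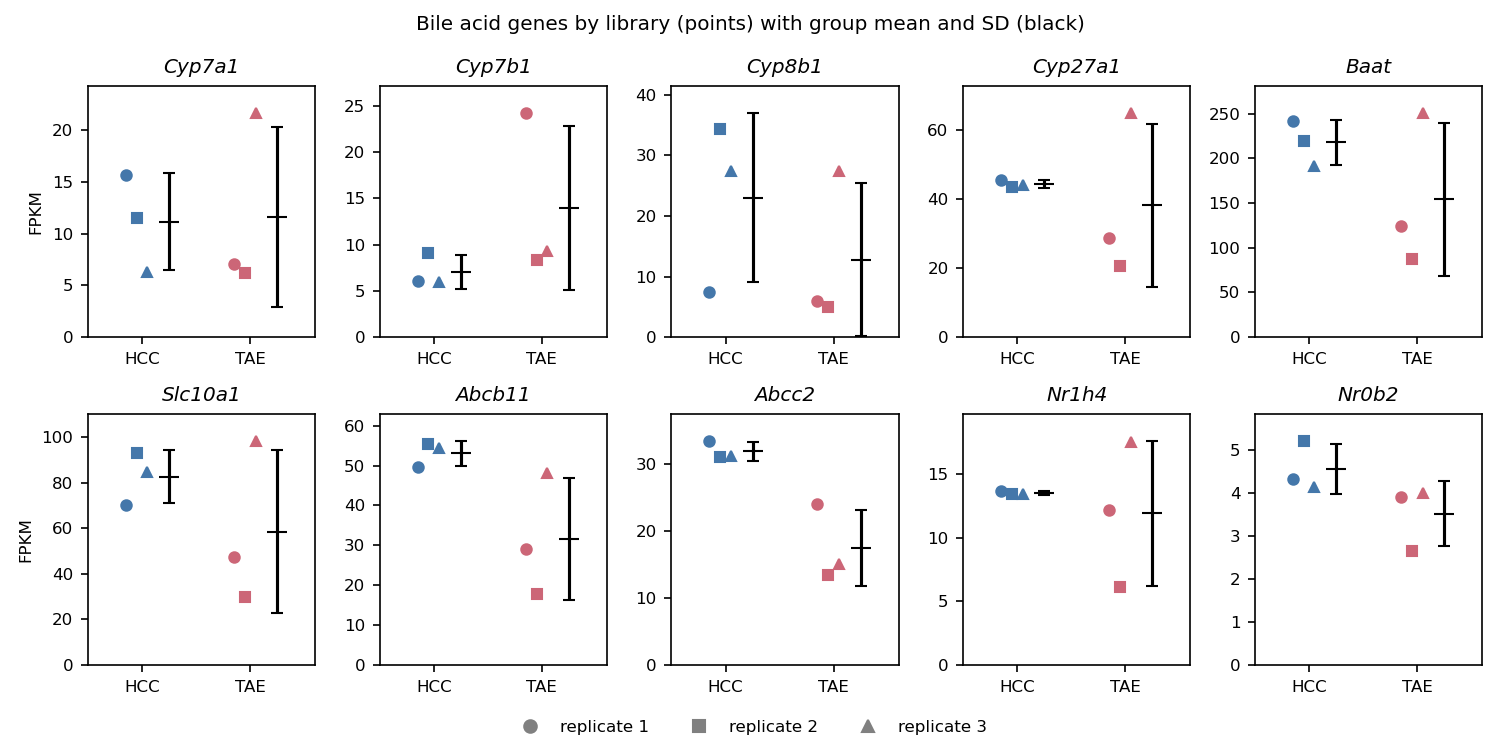
FPKM of the 10 bile acid genes (y axes from 0, 1 panel per gene) in the 3 HCC and 3 TAE libraries, with the marker shape giving the replicate and black bars the group mean and SD. TAE replicate 3 lies above the HCC values for Cyp7a1, Cyp7b1, Cyp27a1, Baat, Slc10a1 and Nr1h4, whereas all 3 TAE values of Abcc2 lie below HCC. Over all genes in log2 CPM, 41.7% lay above every HCC library in TAE replicate 3 and 41.7% lay below.

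**Figure D2:**
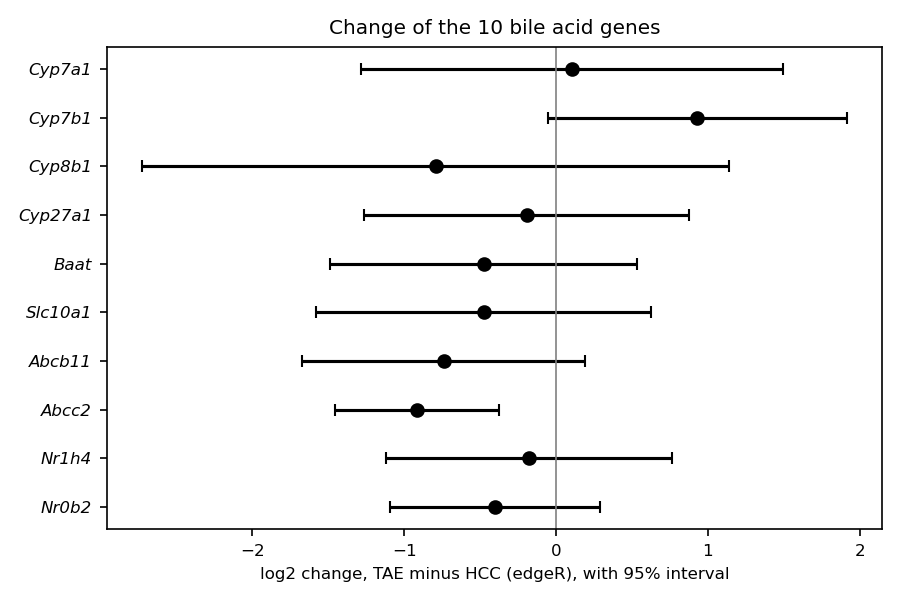
Log2 change of TAE minus HCC from edgeR (x axis) for the 10 genes, with bars for the 95% interval. The interval of Abcc2, from -1.46 to -0.38, does not cross 0, and the other 9 intervals do.

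Cyp7a1, the rate-limiting enzyme of the classic route (ENSRNOG00000009488, chromosome 5, 19358734 to 19368431), read 15.6, 11.5 and 6.25 FPKM in HCC replicates 1, 2 and 3 and 7.04, 6.20 and 21.7 FPKM in TAE replicates 1, 2 and 3. The groups overlapped fully, and TAE replicate 3 held the highest value of all 6 libraries. The means were 11.1 ± 4.69 and 11.6 ± 8.69 FPKM (SD, n = 3 per group). This gave a log2 change of 0.10 ± 0.59 (SE), with a 95% interval from -1.28 to 1.49 (edgeR adjusted p = 0.925). Its sign was not stable, for the change was -0.86 without TAE replicate 3 and -0.17 without HCC replicate 3, and limma on log2(FPKM + 1) gave -0.07.

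Cyp8b1, the sterol 12-alpha-hydroxylase (ENSRNOG00000019481, chromosome 8, 130548418 to 130550388), varied most among the 10 genes within either group. It read 7.38, 34.3 and 27.4 FPKM in HCC and 5.96, 5.02 and 27.4 FPKM in TAE. HCC replicate 1 was thus nearer to TAE replicates 1 and 2 than to the other HCC libraries, while TAE replicate 3 equalled HCC replicate 3. The coefficient of variation was 60.7% in HCC and 98.9% in TAE. Its log2 change was -0.79 ± 0.82 with a 95% interval from -2.73 to 1.14 (edgeR adjusted p = 0.567), and it was -2.19 without TAE replicate 3 and -0.37 without TAE replicate 2.

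Cyp27a1, the mitochondrial sterol 27-hydroxylase that opens the alternative route (ENSRNOG00000017188, chromosome 9, 81968332 to 81998169), was tight in HCC at 45.6, 43.5 and 44.0 FPKM. In TAE it read 28.8, 20.7 and 64.9 FPKM. Replicates 1 and 2 lay below every HCC library and replicate 3 above, so that the coefficient of variation went from 2.52% in HCC to 61.7% in TAE. The log2 change over all libraries was -0.19 ± 0.46 (edgeR adjusted p = 0.811). Without TAE replicate 3 it was -0.95 and passed (edgeR adjusted p = 0.0244), and without TAE replicate 1 or 2 it was 0.01 or 0.15.

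Cyp7b1, the oxysterol 7-alpha-hydroxylase of the alternative route (ENSRNOG00000009730, chromosome 2, 102701903 to 102871257), was the gene with the largest positive change. It read 6.07, 9.11 and 5.94 FPKM in HCC and 24.2, 8.32 and 9.33 FPKM in TAE. TAE replicate 1 was far above all others, and TAE replicate 2 lay within the HCC range. From HCC to TAE the log2 change was 0.93 ± 0.42 with a 95% interval from -0.06 to 1.91 (edgeR adjusted p = 0.240). It was 0.32 without TAE replicate 1, and 1.23 without TAE replicate 2, where it passed (edgeR adjusted p = 0.0497). Non-hepatocyte marker sums moved in the same direction, with the highest fibroblast and cholangiocyte sums in TAE replicate 1 (3082 and 385 FPKM), and their part in the Cyp7b1 value was not tested.

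Baat, which joins bile acids to taurine or glycine (ENSRNOG00000007395, chromosome 5, 64768401 to 64777368), was the most abundant of the 10 genes per length. It read 242, 220 and 191 FPKM in HCC and 125, 87.5 and 251 FPKM in TAE. As for Cyp27a1, TAE replicates 1 and 2 lay below HCC and TAE replicate 3 above. Its log2 change was -0.48 ± 0.43 (edgeR adjusted p = 0.513), and -1.15 without TAE replicate 3 (edgeR adjusted p = 0.0222).

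Among the transporters, Slc10a1, the sodium-dependent uptake carrier NTCP (ENSRNOG00000005794, chromosome 6, 104617730 to 104631355), read 70.3, 93.3 and 84.8 FPKM in HCC and 47.2, 29.9 and 98.6 FPKM in TAE. TAE replicate 3 was the highest of the 6 libraries and TAE replicates 1 and 2 the lowest. Its log2 change was -0.48 ± 0.47 (edgeR adjusted p = 0.547), and -1.21 without TAE replicate 3 (edgeR adjusted p = 0.0302).

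Abcb11, the canalicular bile salt export pump BSEP (ENSRNOG00000050860, chromosome 3, 55480024 to 55587946), read 49.6, 55.5 and 54.3 FPKM in HCC. In TAE the values were 29.0, 17.8 and 48.1 FPKM, all below HCC, although TAE replicate 3 was only just so and overlapped HCC after TMM scaling. The means were 53.1 ± 3.12 and 31.6 ± 15.3 FPKM. This gave a log2 change of -0.74 ± 0.40 with a 95% interval from -1.67 to 0.19 (edgeR adjusted p = 0.302), and it was -1.29 without TAE replicate 3 (edgeR adjusted p = 0.0235).

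Abcc2, the canalicular pump MRP2 for conjugated bilirubin and divalent bile acid conjugates (ENSRNOG00000046727, chromosome 1, 263554453 to 263613252), did not overlap between groups. It read 33.5, 31.0 and 31.2 FPKM in HCC and 23.95, 13.4 and 15.0 FPKM in TAE, with no overlap on either scale. On the CPM scale it was the only such gene of the set, while 13.4% of all genes lay apart and lower. In FPKM, Abcb11 and Nr0b2 also lay wholly below HCC, against 5.54% of all genes. Relative to the hepatocyte markers, the groups overlapped for Abcc2. TAE replicate 3, in which 6 of the other genes exceeded every HCC library, held less Abcc2 than every HCC library. Over all genes in log2 CPM, 41.7% lay above every HCC library in TAE replicate 3 and 41.7% lay below. The means of Abcc2 were 31.9 ± 1.40 and 17.4 ± 5.69 FPKM, a TAE mean at 54.8% of that of HCC. The log2 change was -0.92 ± 0.23 with a 95% interval from -1.46 to -0.38, and did not reach the threshold (edgeR adjusted p = 0.0772). DESeq2 called it (adjusted p = 0.00748), and edgeR did so without TAE replicate 2 (-0.71, adjusted p = 0.0252). The other 5 omissions of a library left the change between -0.88 and -1.18 without a call. Without HCC replicate 1, 2 or 3 or TAE replicate 1, edgeR called only 0 or 1 of all genes.

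Nr1h4, the bile acid receptor FXR (ENSRNOG00000007197, chromosome 7, 30003429 to 30162056), had the smallest spread in HCC, at 13.7, 13.5 and 13.5 FPKM, a coefficient of variation of 1.02%. In TAE it read 12.2, 6.10 and 17.5 FPKM, which lay on both sides of HCC. Its log2 change was -0.18 ± 0.40 (edgeR adjusted p = 0.806), and 0.18 without TAE replicate 2.

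Nr0b2, the FXR target SHP that represses Cyp7a1 and Cyp8b1 (ENSRNOG00000007229, chromosome 5, 151776004 to 151779319), was the least abundant, with 49 to 78 counts per library. Its values were 4.32, 5.22 and 4.14 FPKM in HCC and 3.90, 2.66 and 4.01 FPKM in TAE. The TAE values lay just below HCC in FPKM and overlapped HCC after TMM scaling. The log2 change was -0.40 ± 0.29 with a 95% interval from -1.09 to 0.29 (edgeR adjusted p = 0.423).

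Per length, the order of the HCC means was Baat (218 FPKM), Slc10a1 (82.8), Abcb11 (53.1), Cyp27a1 (44.3), Abcc2 (31.9), Cyp8b1 (23.02), Nr1h4 (13.5), Cyp7a1 (11.1), Cyp7b1 (7.04) and Nr0b2 (4.56). The neighbours from Abcc2 down to Cyp7b1 overlapped between libraries, and the others did not. In TAE the means kept Baat first and Slc10a1 second, and Cyp7b1 moved from rank 9 to rank 6, with its high value in TAE replicate 1.

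Set out by library, all but Cyp7b1 were low in TAE replicates 1 and 2, and most were not in TAE replicate 3. Relative to the HCC mean, 9 of the 10 genes were lower in TAE replicate 1, with a median of -0.68 on the log2 CPM scale. In TAE replicate 2, again 9 of 10 were lower, with a median of -1.40, from -2.11 for Cyp8b1 to 0.07 for Cyp7b1. In TAE replicate 3 only 3 were lower, with a median of 0.45, from -0.95 for Abcc2 to 1.19 for Cyp7a1. The mean of the 23 hepatocyte markers stood at -0.97, -1.67 and 0.40 in the same libraries, and the median of all genes at -0.01, -0.01 and 0.01. Across the 6 libraries, Pearson's r with the mean of the hepatocyte markers was 0.993 for Slc10a1, 0.98 for Abcb11, Baat and Cyp27a1, 0.936 for Nr1h4 and 0.900 for Nr0b2. It was 0.855 for Cyp8b1, 0.724 for Cyp7a1, 0.605 for Abcc2 and -0.231 for Cyp7b1. These r describe 6 libraries that share their scaling and their 2 groups.

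**Figure D3:**
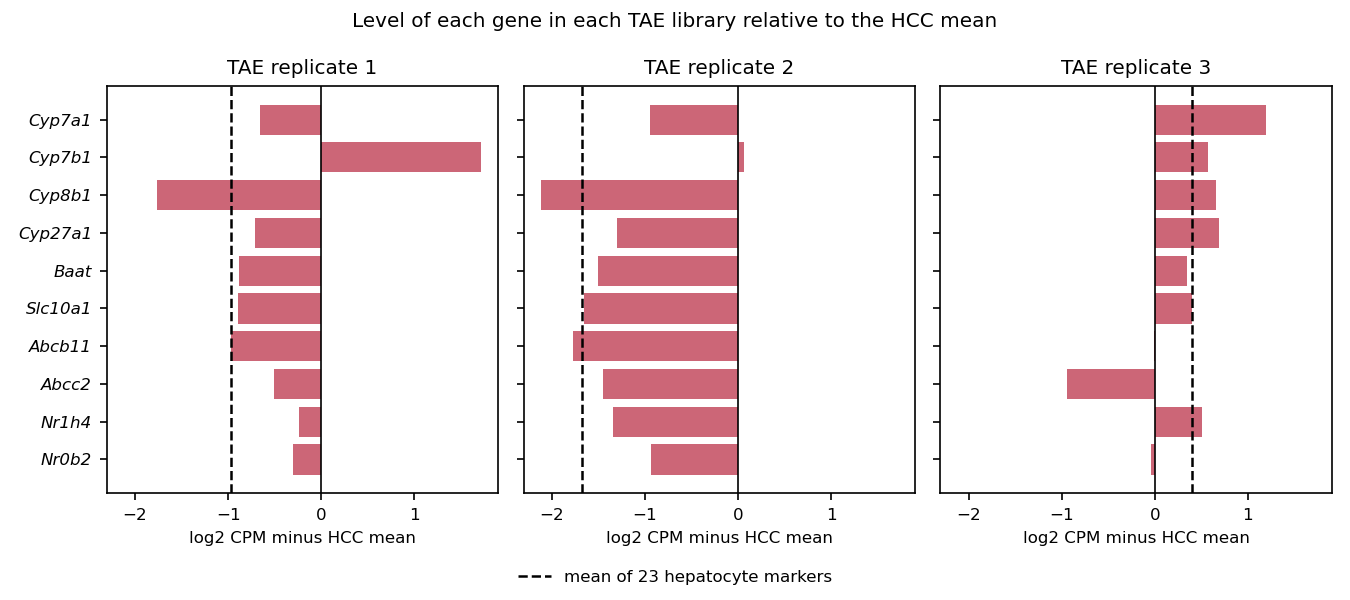
Log2 CPM of each gene minus its HCC mean (x axis) in each TAE library (panels), with the dashed line at the mean of the 23 hepatocyte markers in that library. Baat, Slc10a1 and Abcb11 end near the dashed line in TAE replicates 1 and 2, while Abcc2 at -0.95 in TAE replicate 3 lies on the other side of 0 from the markers at 0.40.

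With TAE replicate 3 left out, edgeR called 4 of the 10 genes lower, Cyp27a1, Baat, Slc10a1 and Abcb11, against 3.51% of all genes lower, and 0 higher, against 4.82%. With TAE replicate 2 left out, Abcc2 was called lower (9.56% of all genes) and Cyp7b1 higher (14.6%). Without any other single library, 0 of the 10 were called. Those fits called almost nothing, with 0, 1 and 0 of all genes without HCC replicates 1, 2 and 3. Without TAE replicate 1, edgeR called 1 of all genes. They cannot tell a weak change from a lack of power.

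Each gene was also set against the mean log2 CPM of the 23 hepatocyte markers of the same library. For 3 against 3 libraries the smallest two-sided p of the exact permutation test is 0.1, so no gene could pass. For Slc10a1 and Baat the differences between the group means were 0.03 and 0.07 on the log2 scale (exact permutation p = 0.8 for each). Cyp27a1 was the 1 gene whose groups did not overlap on this scale. It was 0.31 higher per hepatocyte marker in TAE, with deviations of 0.25, 0.38 and 0.29 from the HCC mean in TAE replicates 1, 2 and 3 (exact permutation p = 0.1, adjusted p = 0.4 over 10 genes). Over all genes, 20.9% lay wholly higher on this scale and 0.448% wholly lower.

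Cyp7b1 deviated from its HCC mean by 2.68, 1.74 and 0.17 relative to the markers, a mean difference of 1.53 (exact permutation p = 0.2). Cyp7a1 deviated by 0.32, 0.73 and 0.80, against a wide HCC spread of 0.76 (SD, n = 3), and Nr1h4 by 0.73, 0.33 and 0.11. For Cyp7a1, TAE replicates 2 and 3 lay just above the highest HCC library (-4.39 and -4.32 against -4.43). Its value in TAE replicate 1 lay within the HCC range. Abcc2 and Nr0b2 split the TAE libraries. Abcc2 stood at 0.47 and 0.22 in TAE replicates 1 and 2 and at -1.34 in TAE replicate 3. Nr0b2 stood at 0.67, 0.74 and -0.44. Abcb11 was at its HCC level per marker in TAE replicate 1 (0.00) and below it in TAE replicates 2 and 3 (-0.10 and -0.40).

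**Figure D4:**
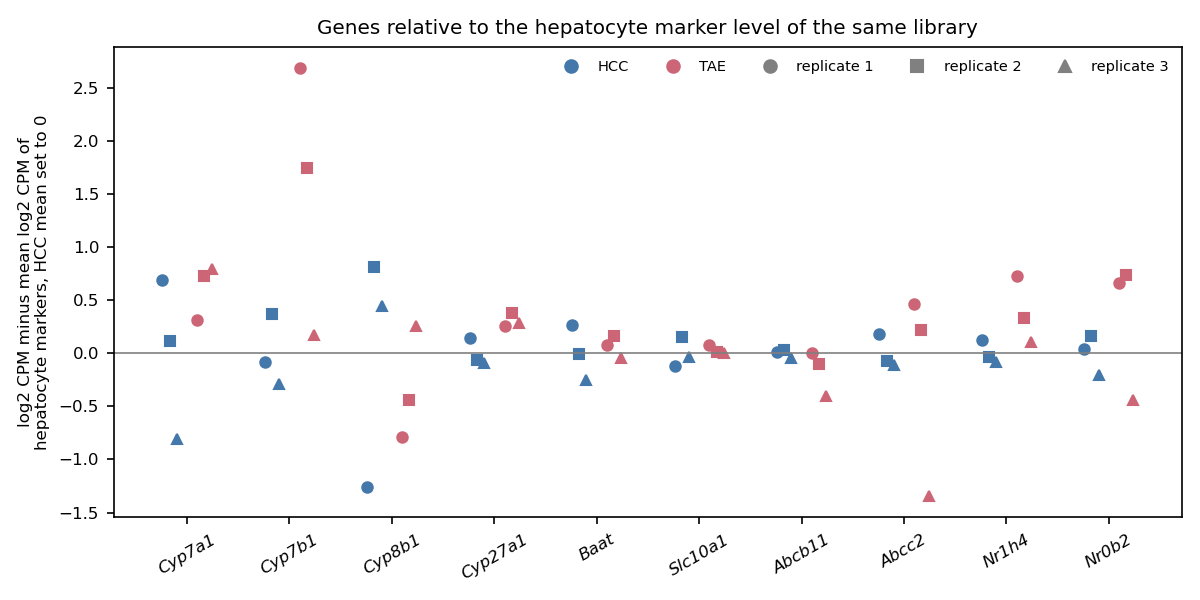
Log2 CPM of each gene minus the mean log2 CPM of the hepatocyte markers in the same library, with each gene's HCC mean set to 0 (y axis), for 3 HCC and 3 TAE libraries per gene. Slc10a1 stays near 0 in all libraries, Cyp7b1 reaches 2.68 in TAE replicate 1, and Abcc2 reads -1.34 in TAE replicate 3.

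Ratios between 2 genes of the same library do not depend on its scaling, and 6 were formed from FPKM. The groups overlapped in all 6 (exact permutation p from 0.3 to 1, adjusted p from 0.8 to 1). The ratio of Cyp7a1 to Cyp7b1, the 7-alpha-hydroxylases of both routes, was 2.57, 1.27 and 1.05 in HCC and 0.291, 0.745 and 2.32 in TAE. Cyp7b1 thus exceeded Cyp7a1 in TAE replicates 1 and 2 only. The ratio of Cyp8b1 to Cyp7a1 was 0.473, 2.97 and 4.38 in HCC and 0.847, 0.810 and 1.26 in TAE. The 2 canalicular pumps parted in TAE replicate 3. The ratio of Abcc2 to Abcb11 was 0.675, 0.558 and 0.574 in HCC, 0.827 and 0.752 in TAE replicates 1 and 2, and 0.312 in TAE replicate 3. The ratio of export pump to uptake carrier, Abcb11 to Slc10a1, ran from 0.595 to 0.705 in HCC and from 0.488 to 0.613 in TAE. Nr0b2 to Nr1h4 ran from 0.308 to 0.389 in HCC and read 0.320, 0.437 and 0.230 in TAE.

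Of the other genes of bile acid metabolism, 1 passed over all genes. Over all genes tested, 0.31% were called lower, 2.7% higher and 53.1% had negative changes, with a median of -0.03, against which the following lists are set. Among 14 tested genes of synthesis and conjugation, 0 were called, 12 had negative changes and the median was -0.20. Ch25h, the cholesterol 25-hydroxylase that activated macrophages also express, read 3.81, 10.5 and 5.37 FPKM in HCC and 16.5, 13.4 and 23.7 FPKM in TAE, all higher (log2 change 1.43 ± 0.44, edgeR adjusted p = 0.120). The macrophage marker sum was higher in the same libraries, and its part in the Ch25h value was not tested. Abcd3, a peroxisomal transporter of bile acid precursors, read 34.1, 35.9 and 31.2 FPKM in HCC and 26.1, 22.01 and 23.9 FPKM in TAE (log2 change -0.53 ± 0.15, edgeR adjusted p = 0.0996). Like Abcc2, it was below HCC in TAE replicate 3 as well. Slc27a2, an acyl-CoA synthetase, and Hsd17b4, the peroxisomal bifunctional enzyme, had log2 changes of -0.75 and -0.53.

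Among 12 tested transport genes, 1 fell, 0 rose, 10 had negative changes and the median was -0.51. Ephx1, the microsomal epoxide hydrolase that has also been described in bile acid uptake, fell from 254.7 ± 38.8 to 121.2 ± 8.04 FPKM, with 293, 216 and 255 FPKM in HCC and 126, 126 and 112 FPKM in TAE. Its log2 change was -1.12 ± 0.15 (edgeR adjusted p = 0.0388, lower in 3 of 3 TAE libraries). The call was lost without HCC replicate 1, 2 or 3 or TAE replicate 1, with edgeR adjusted p from 0.142 to 0.223. In each of these fits only 0 or 1 of all genes was called. The Ephx1 change stayed between -1.03 and -1.22. Slco1a4, an organic anion uptake carrier, read 22.9, 18.9 and 15.2 FPKM in HCC and 9.87, 6.64 and 11.7 FPKM in TAE (log2 change -1.03 ± 0.29, edgeR adjusted p = 0.102), also with no overlap. Abcg5 and Abcg8, which pair to form the biliary cholesterol exporter, were scarce, at 1.13 ± 0.72 and 0.370 ± 0.243 FPKM in HCC and 0.460 ± 0.061 and 0.0733 ± 0.0493 FPKM in TAE. Their log2 changes were -1.33 ± 0.57 and -2.44 ± 0.64 (edgeR adjusted p = 0.221 and 0.0867). Slc51a and Slc51b, which pair as the basolateral bile acid exporter, had too few counts to be tested.

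Of 15 tested regulators, 0 were called, 11 had negative changes and the median was -0.10. Hnf4a, the nuclear receptor that drives hepatocyte genes, read 34.2, 40.7 and 39.8 FPKM in HCC and 23.3, 14.3 and 41.0 FPKM in TAE. This order among TAE libraries was shared by several genes named here. The summed hepatocyte markers held it too (21101, 14950 and 48512 FPKM), as did Baat, Slc10a1, Cyp27a1, Abcb11, Nr1h4, Cyp7a1, Cyp8b1 and Nr0b2. Abcc2, Cyp7b1, Abcd3, Ephx1 and the hepatocyte marker Tat did not hold it. A link between Hnf4a and the genes that held this order was not tested. Prox1, Nr5a2 and Vdr, which encode regulators of transcription, had log2 changes of -0.63, -0.48 and 0.38 (edgeR adjusted p = 0.275, 0.456 and 0.508). With TAE replicate 3 left out, edgeR called 6 of the other synthesis genes, 3 of the transport genes and 4 of the regulators lower, against 3.51% of all genes.

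**Figure D5:**
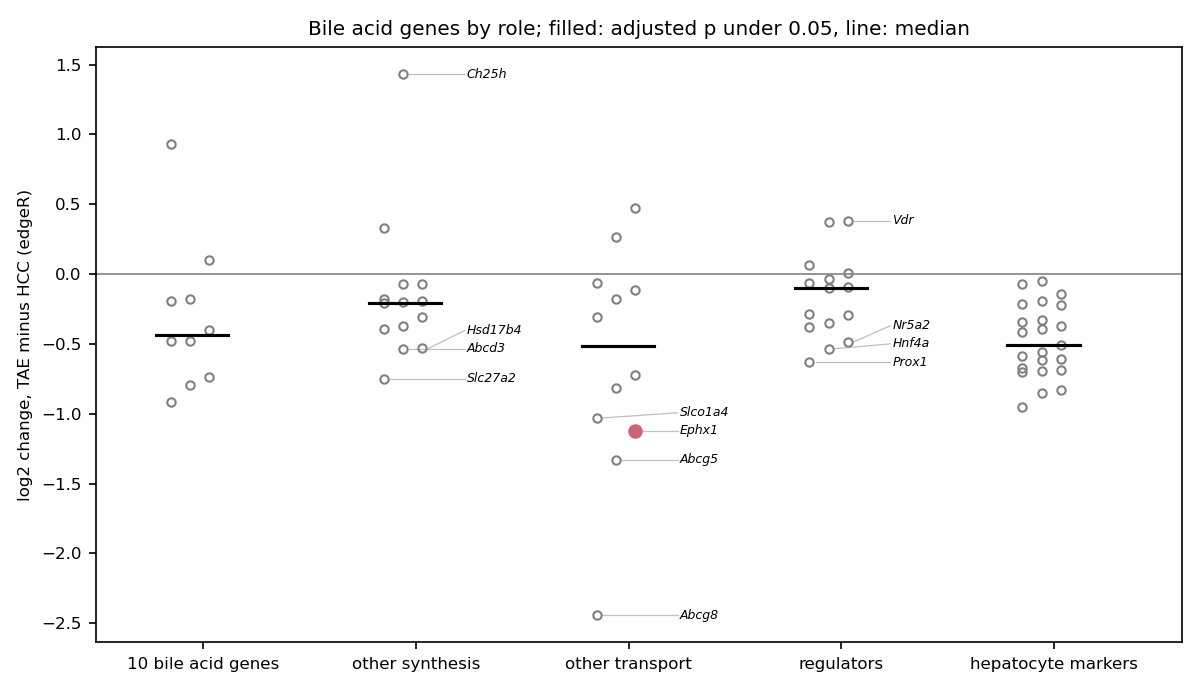
Log2 change of TAE minus HCC from edgeR (y axis) for the 10 genes, the other bile acid genes by role and the hepatocyte markers (open circles), with a line at each median. The 1 filled circle is Ephx1 at -1.12, the only gene shown with an adjusted p under 0.05.

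Genes whose log2 CPM was most like that of Abcb11 over the 6 libraries, among 11681 genes searched, were Tm4sf4, a tetraspan membrane protein (r = 0.9989), Abat, which degrades the transmitter GABA (r = 0.9975), and Grb14, an adaptor of the insulin receptor (r = 0.9974). Their FPKM in TAE replicates 1, 2 and 3 was 43.6, 29.3 and 59.3 for Tm4sf4, against 64.3 to 68.2 in HCC. For Cyp7a1 the nearest were Smim24 (r = 0.980), Phtf2 (r = 0.977) and Atpsckmt (r = 0.974). With 6 libraries and so many genes, values of r this high describe likeness in these libraries only.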

How the data were processed

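Expression was analysed in 6 rat liver libraries, 3 of HCC and 3 of TAE, grouped by their titles. The authors deposited 1 table with, per the file headers, read count and FPKM columns for each library. The FPKM values equal the deposited counts scaled to exonic size and library total (100% within 0.006). Per the labels' protocols, poly(A) RNA was made into strand-specific dUTP libraries. The build is mRatBN7.2, per the submitters' processing notes, and no aligner, counter or counting strand was named by them. The last gene of chromosome 1 ends at 282724300 in the table, beyond the end of that chromosome in mRatBN7.2, so coordinates are printed as the table gives them and their build is not settled. Promoter coordinates are GRCr8.

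Deposited counts were tested with edgeR 4.0.16 in R 4.3.3 (TMM scaling, filterByExpr, quasi-likelihood test, TAE minus HCC, two-sided, no block). P-values were adjusted by Benjamini-Hochberg over the 14499 tested genes and called at 0.05. SEs are the absolute log2 change over the square root of F. Log2 CPM used a prior count of 2, and ratios used FPKM + 0.01. Ratios and marker-relative levels were compared by exact permutation tests (scipy 1.17.1). DESeq2 1.42.0 and limma 3.58.1 were alternatives, and scripts were tested on simulated data. Whether each biosample was its own animal is not stated, so p-values describe only the spread of these samples, which may be technical. Replicates differed by more than sampling noise. Chi-square over its degrees of freedom was 5.80 to 14.1 between HCC libraries and 51.0 to 209 between TAE libraries.

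The genes and lists were chosen with earlier results of these data known. Other pathway genes named are those that passed and up to 4 of each list with the largest change. For Cyp7a1 and Abcb11 the 3 genes with the highest Pearson correlation (mean FPKM of at least 1) are named. Other list members are given as counts. Klb, Fgf15 and Ahsg were listed and not analysed here, and some further items are not reported here.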

Additional observations from a re-analysis of the deposited data

How the results depend on the processing

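The count of all genes called was 437 with edgeR. It was 829 without a filter on low counts, 1664 with DESeq2, 701 and 709 with limma on log2(FPKM + 1) and log2(FPKM + 0.1), 5975 with limma-voom and sample weights, and 0 to 3569 when 1 library was left out. Of the 10 genes, edgeR called 0 lower and 0 higher. DESeq2 called 1 lower (1.65% of all genes) and 0 higher (8.81%). Limma-voom with sample weights called 5 lower (19.5% of all genes) and 1 higher (21.7%). Leaving out 1 library gave 0 to 4 lower and 0 to 1 higher. Of the other synthesis genes, DESeq2 called 1 lower and 1 higher, limma-voom 7 lower and 1 higher, and leaving out 1 library gave 0 to 6 lower and 0 to 1 higher. For the other transport genes, where edgeR called 1 lower, DESeq2 gave 3 lower, limma-voom 4 lower and 2 higher, and leaving out 1 library 0 to 3 lower. For the regulators, limma-voom gave 6 lower and leaving out 1 library 0 to 4. The shares of all genes under DESeq2 and limma-voom given for the 10 genes are also the background of these lists. The cause of these shifts was not tested.

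The sign of the Cyp7a1 change turned from 0.10 to -0.068 with limma on log2(FPKM + 1), with or without an FPKM filter, to -0.082 with log2(FPKM + 0.1) and to -0.38 with limma-voom. Leaving out 1 library, the change ran from -0.86 to 0.45 for Cyp7a1, from -0.95 to 0.15 for Cyp27a1 and from -0.67 to 0.18 for Nr1h4. Relative to the hepatocyte markers it ran from -0.95 to 0.083 for Cyp8b1, from -0.062 to 0.20 for Baat, from -0.028 to 0.11 for Slc10a1 and from -0.56 to 0.34 for Abcc2. With the markers but Alb and the apolipoproteins, Baat and Slc10a1 were at -0.015 and -0.049. The log2 ratio difference ran from -0.054 to 0.58 for Cyp7a1 to Cyp27a1, from -0.31 to 0.39 for Abcc2 to Abcb11 and from -0.31 to 0.16 for Nr0b2 to Nr1h4. The log2 change of the other 7 genes kept its sign under every alternative run.

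HCC and TAE libraries share replicate numbers, but the labels tie them to nothing. Deviations of same-numbered libraries correlated at 0.10, -0.21 and 0.03 across genes. Each deviation is from the mean of only 3 libraries, so these values cannot decide whether same-numbered libraries were handled together. With the replicate block edgeR called 0 genes of all, 0 of the 10 and 0 transport genes, and the Cyp7a1 change was -0.21. Nr0b2 had the fewest counts of the 10, 49 to 78 per library.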

Other observations

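The untreated libraries also differed among themselves, and not only in the sterol genes. Across genes, chi-square over its degrees of freedom was 14.07 and 14.09 for HCC replicate 1 against HCC replicates 2 and 3. Between HCC replicates 2 and 3 it was 5.80. The TAE libraries differed more, at 51.0 to 209. In HCC replicate 1, Cyp8b1 read 7.38 FPKM against 34.3 and 27.4 in HCC replicates 2 and 3, while Cyp7a1 was the highest of the 3 at 15.6 FPKM against 11.5 and 6.25. Abcg5, part of the cholesterol exporter of bile, was also lowest there, at 0.37 FPKM against 1.81 and 1.2. Its partner Abcg8 did not set HCC replicate 1 apart from HCC replicate 3, at 0.21 FPKM against 0.65 and 0.25. Cyp27a1 was level at 45.6, 43.5 and 44.0 FPKM. Nr1h4 and Nr0b2 did not share this order, at 13.7, 13.5 and 13.5 FPKM and at 4.32, 5.22 and 4.14 FPKM. These FPKM values were noticed after the data were seen and no test was made of them.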
